A study of Mus musculus with 24 samples.

Results

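The genes described are the 4 adenosine receptors (Adora1, Adora2a, Adora2b and Adora3) and 4 enzymes that make or remove adenosine (Nt5e, Entpd1, Ada and Adk). They were found by mapping the accession of every non-control array probe to a gene, which gave 13 probes for these 8 genes among 41174 probes and 18539 gene symbols in all. Adora1 had 3 probes, Adora2a, Nt5e and Entpd1 had 2 each, and the other genes had 1. Values are those of the gene's brightest probe in the tissue, and further probes are quoted where they went another way.

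Adenosine outside the cell is made from ATP released by stressed or activated cells. CD39, the product of Entpd1, strips ATP and ADP to AMP, and CD73, the product of Nt5e, turns AMP into adenosine. Adenosine is removed by deamination to inosine by adenosine deaminase (Ada) and, after uptake, by phosphorylation to AMP by adenosine kinase (Adk). Of the receptors, the products of Adora1 and Adora3 couple to inhibitory G proteins, whereas those of Adora2a and Adora2b couple to stimulatory G proteins and raise cyclic AMP. In blood vessels this pathway is known for dilation, for the barrier function of the endothelium and for the restraint of leukocyte adhesion and platelet aggregation.

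The arrays carried RNA of CD105+/CD45- cells, a gate for endothelial cells, sorted from the aorta (as far as the iliac bifurcation) and from hind limb muscle (plantaris, gastrocnemius and biceps femoris) of male mice. Mice were wild-type C57BL/6 (WT) or galectin-3 (-/-) (KO, with a germline deletion in Lgals3), and they received chow with 12% or a high-fat diet (HFD) with 60% of calories from fat for 8 weeks, from 8 weeks of age. The 8 groups of tissue, genotype and diet held 3 arrays each, from 3 independent experiments, and each array carried a pool of several animals of its group. The aorta and muscle arrays of a genotype, diet and experiment came from the same animals.

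All levels are log2 processed intensities relative to the 75th percentile of the array (level 0), and a difference of 1 is a doubling. That percentile lay between 2390 and 5938 intensity units over the 24 arrays, and between 59.5% and 75.7% of spots were well above background. All 10 endothelial markers were well above background on every array, with summed linear levels of 100 to 290 in aorta and 290 to 423 in muscle. The sorted cells also carried signal of other cell types. The 6 fibroblast markers summed to 224 to 507 in aorta and 17.2 to 160 in muscle, the 7 skeletal muscle fibre markers to 0.969 to 4.41 and 13.9 to 90.3, and the 11 macrophage markers to 3.26 to 8.62 and 1.68 to 22.8. In 11 of 12 pairs the array labelled KO gave the higher Lgals3 reading (difference 1.28, SE 0.27, adjusted p = 0.0907 by limma). The position of this probe relative to the deletion was not known, so this reading cannot decide whether a label is right. The paper reports checks of the deletion in the mice by DNA, RNA and protein. At 35 probes that separated the labelled genotypes in experiments 2 and 3, experiment 1's arrays were placed on a scale from WT (0) to KO (1). The chow arrays labelled WT and KO lay at 0.09 and 1.04 in aorta and at 0.13 and 0.93 in muscle. The HFD arrays labelled WT and KO lay in between, at 0.303 and 0.393 in aorta and at 0.538 and 0.495 in muscle. Most member results on diet or genotype are therefore also given without experiment 1.

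Of the 8 genes, 7 had at least 1 RefSeq promoter window (GRCm38.p6), and 10 annotated starts were found for them. The 150 bases before each start are shown for Adora2b, Entpd1 and Adk, the members with the widest gaps between aorta and muscle. Capitals mark matches on either strand to the GC box (GGGCGG), the CCAAT box (CCAAT) and the hypoxia response core (ACGTG or GCGTG). The letters run 5′ to 3′ along the plus strand, which is the coding strand of all 3 genes.
Adora2b, chr11:62248834-62248983: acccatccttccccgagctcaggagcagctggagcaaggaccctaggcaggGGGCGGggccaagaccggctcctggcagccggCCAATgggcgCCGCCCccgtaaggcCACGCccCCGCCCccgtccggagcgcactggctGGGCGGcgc
Entpd1, first start, chr19:40612216-40612365: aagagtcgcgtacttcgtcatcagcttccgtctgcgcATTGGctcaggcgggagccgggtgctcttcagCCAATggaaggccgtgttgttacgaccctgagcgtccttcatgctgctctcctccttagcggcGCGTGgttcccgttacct
Entpd1, other start, chr19:40659620-40659769: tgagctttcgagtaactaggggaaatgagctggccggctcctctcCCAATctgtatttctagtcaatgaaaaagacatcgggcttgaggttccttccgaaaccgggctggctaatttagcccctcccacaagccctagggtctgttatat
Adk, first start, chr14:21052424-21052573: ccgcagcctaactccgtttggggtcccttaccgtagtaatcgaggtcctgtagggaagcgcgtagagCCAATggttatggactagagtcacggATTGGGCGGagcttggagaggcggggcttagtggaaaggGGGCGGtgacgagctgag
Adk, other start, chr14:21076002-21076151: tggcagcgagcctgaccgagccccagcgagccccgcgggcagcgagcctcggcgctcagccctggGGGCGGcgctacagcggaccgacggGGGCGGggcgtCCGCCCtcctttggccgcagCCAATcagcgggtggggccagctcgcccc

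The Adora2b window held 4 GC boxes, 1 CCAAT box and 1 hypoxia response core, and its GC content was 76.0% against a median of 54.0% over 32851 windows. The first Adk window held 2 GC boxes and 2 CCAAT boxes, with a GC box and a CCAAT box that overlap, and the other held 3 and 1. Entpd1 had no GC box before either start, and 2 CCAAT boxes with 1 hypoxia response core before the first. Among all windows of this length, 28.6% held a GC box, 24.5% a CCAAT box and 28.6% a hypoxia response core. The cAMP response element TGACGTCA, in 1.36% of all windows, was in none of the 10 windows of these genes. These matches describe letters only, and the arrays do not tell which start was used.

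**Figure D1:**
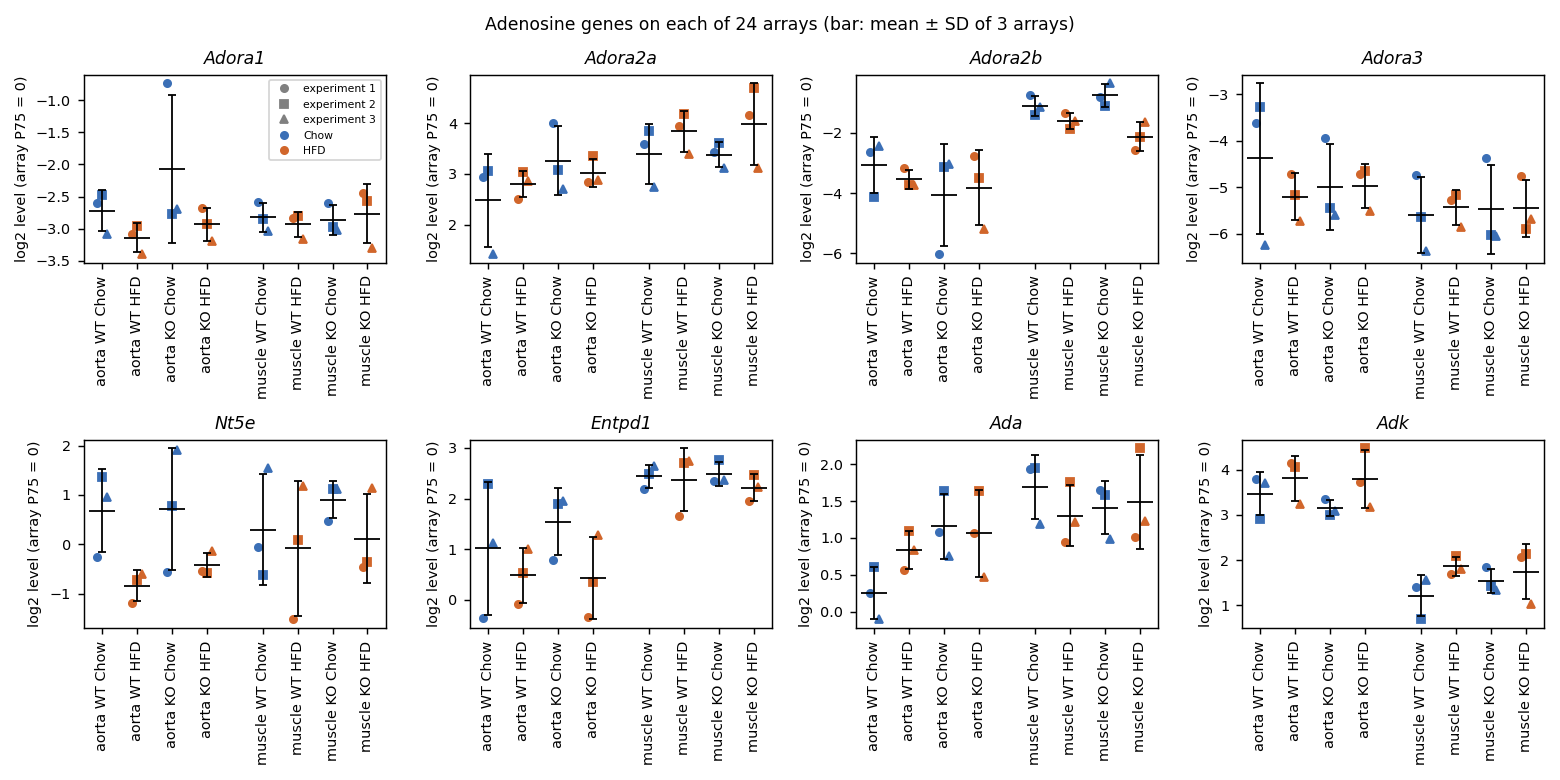
Each panel plots 1 gene, with the log2 level relative to the array's 75th percentile on the y axis and the 8 groups of tissue, genotype and diet on the x axis. Points are single arrays (marker shape for the experiment, colour for the diet) and bars the mean ± SD of 3 arrays. All 12 aortic Adk arrays lie above all 12 muscle arrays, and the 3 muscle Adora2b arrays labelled KO on HFD lie below the 3 on chow.

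The first comparison asked how the endothelium of the aorta and of muscle differ in these genes. Adk was higher in aorta, whereas Adora2b, Entpd1 and, by a small margin, Ada were lower there. Over all 27387 probes tested between the tissues, 28.2% were called at an adjusted p under 0.05 (limma, Benjamini-Hochberg), 11.5% higher and 16.7% lower in aorta, so 4 calls among 8 genes, 1 higher and 3 lower, are to be read against a frequent event. The median difference of all probes was −0.27, and each difference below should be read against that shift. The share of all probes with the same sign in every pair of tissues was not taken. Counts of such pairs are therefore given as a description. The RNA was a bulk sample, in which fewer cells of a type and less RNA per cell cannot be told apart.

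Adk, which returns adenosine to AMP inside the cell, was 3.92-fold higher in aorta. The 12 aortic levels ran from 2.92 to 4.48 (median 3.53) and the 12 muscle levels from 0.68 to 2.13 (median 1.62). The tissues did not overlap, which was so for 5.64% of probes (3.54% with aorta higher). The difference was 1.97 (SE 0.28, adjusted p = 3.65e-05), with aorta higher in 12 of 12 pairs from the same animals and a range of 1.44 to 2.47 over the pairs. Relative to the median of all probes it was 2.25. In order, the group means ran from 3.82 ± 0.50 (SD, n = 3) in aorta of WT mice on HFD to 1.21 ± 0.47 in muscle of WT mice on chow. Only the step from the lowest aortic group (3.15 ± 0.17, labelled KO on chow) to the highest muscle group (1.86 ± 0.21, WT on HFD) separated neighbours whose arrays did not overlap.

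The fibroblast markers moved with this difference. Each of the 6 was called higher in aorta, from 1.79 (Dcn) to 5.73 (Dpt), with a median of 4.16, and the 24 summed levels given above did not overlap between the tissues. Within aorta, the level of Adk and the median fibroblast marker level had r = 0.85 over 12 arrays, and within muscle r = 0.58. In muscle, Adk had a higher r with the macrophage markers (0.71), and in aorta its r with the endothelial markers was −0.81. These arrays share slides and the same scaling, and the correlations are a description. The part of fibroblast RNA in the Adk difference was not tested.

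Entpd1, the ectonucleotidase that starts the path from ATP to adenosine, was 2.84-fold lower in aorta. Its levels ran from −0.35 to 2.28 (median 0.89) in aorta and from 1.65 to 2.76 (median 2.42) in muscle, so that the tissues overlapped at the edges. The difference was −1.51 (SE 0.33, adjusted p = 0.0019), with aorta lower in 12 of 12 pairs, and −1.23 relative to the median of all probes. The other probe of the gene gave −1.64 (adjusted p = 0.00203). All 4 muscle means, from 2.49 ± 0.23 to 2.21 ± 0.26, stood above the 4 aortic means, from 1.54 ± 0.66 to 0.43 ± 0.81, and the arrays of every 2 neighbouring groups overlapped.

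The endothelial markers were also lower in aorta, 8 of 10 by the same test, with a median of −1.06 and a range from −2.05 (Tie1) to −0.28 (Vwf). The level of Entpd1 followed the median endothelial marker level within each tissue, with r = 0.79 over 12 aortic arrays and r = 0.79 over 12 muscle arrays. The part of endothelial RNA content in the Entpd1 difference was not tested.

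Ada, which deaminates adenosine, was 1.57-fold lower in aorta. Levels ran from −0.11 to 1.64 (median 0.80) in aorta and from 0.95 to 2.22 (median 1.41) in muscle, and they overlapped widely. The difference was −0.65 (SE 0.23, adjusted p = 0.0437), with aorta lower in 10 of 12 pairs, but only −0.37 relative to the median of all probes. The call was lost without experiment 1 (adjusted p = 0.162), without experiment 2 (0.186) and without experiment 3 (0.0870), and in the deposited log2 table (−0.38, adjusted p = 0.270). In that table the median of all probes lies at −0.01 because its arrays were scaled within each tissue.

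Nt5e, the final enzyme of adenosine formation outside the cell, did not pass the test between the tissues. Its levels ran from −1.20 to 1.91 in aorta and from −1.52 to 1.56 in muscle, with a difference of −0.28 (95% interval −1.18 to 0.62, adjusted p = 0.651). Relative to the median of all probes the difference was −0.0037. The other Nt5e probe was well above background on only 2 of 24 arrays and was not tested.

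Adora2b, the low-affinity receptor that couples to cyclic AMP, had the widest gap of the receptors and was 4.68-fold lower in aorta. Aortic levels ran from −6.02 to −2.45 (median −3.35) and muscle levels from −2.58 to −0.35 (median −1.37), with overlap at the edge alone. The lowest aortic value, labelled KO on chow in experiment 1, was not well above background, and the other 23 arrays were. The difference was −2.23 (SE 0.52, adjusted p = 0.0037), with aorta lower in 12 of 12 pairs, and −1.95 relative to the median of all probes. The call was lost without experiment 2, where the difference was −2.35 with an adjusted p of 0.0976. That setting called 10.9% of all probes, against 28.2% with all experiments. The 4 muscle means, from −0.76 ± 0.38 to −2.12 ± 0.47, stood above the 4 aortic means, from −3.07 ± 0.92 to −4.06 ± 1.70, and every pair of neighbours in that order overlapped.

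Within the tissues, the correlation of Adora2b with the median endothelial marker level was −0.54 over 12 aortic and −0.16 over 12 muscle arrays, opposite in sign to that of Entpd1 and given as a description. Correlations of levels hold the differences between the groups of genotype and diet. For deviations from the group means, the r of Adora2b with these markers was −0.63 in aorta and −0.56 in muscle. The 7 skeletal muscle fibre markers were all called lower in aorta, with fitted differences from −8.35 (Myh4) to −2.80 (Actn3) and a median of −6.30. Of these, Ckm, Myh4 and Myh1 were well above background on only 6, 4 and 3 of 12 aortic arrays. In muscle, Adora2b had its highest correlation with the smooth muscle and pericyte markers (r = 0.75 over 12 arrays), whereas in aorta this r was −0.18. The summed levels of these markers were 70.1 to 140 in aorta and 86.9 to 141 in muscle. Of these 8 markers 5 were called lower in aorta and 0 higher. With the muscle fibre markers, Adora2b had r = 0.13 within muscle and 0.19 within aorta, and Entpd1 −0.76 and −0.62. With the smooth muscle and pericyte markers, Entpd1 had r = −0.21 within muscle and 0.33 within aorta. The part of muscle fibre or smooth muscle and pericyte RNA in the Adora2b and Entpd1 differences was not tested.

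Adora2a, the high-affinity receptor that couples to cyclic AMP, ran from 1.42 to 4.01 (median 2.91) in aorta and from 2.73 to 4.68 (median 3.60) in muscle. The difference of −0.76 (SE 0.30, adjusted p = 0.0624) did not pass the test, although aorta was lower in 11 of 12 pairs. Without experiment 3 it did, at −0.83 (adjusted p = 0.0205). The adjusted p was 0.175 without experiment 1, 0.361 without experiment 2 and 0.266 in the deposited log2 table. With the pool of animals as a block in place of the slide, which uses the pairing of the tissues, the same difference had an adjusted p of 0.00197 (limma), in a setting that called 57.1% of all probes. The other Adora2a probe gave −0.33 (adjusted p = 0.322). The 4 muscle means (3.99 ± 0.80 to 3.38 ± 0.25) stood above the 4 aortic means (3.26 ± 0.68 to 2.48 ± 0.92), with overlap between all neighbours.

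The receptors that couple to inhibitory G proteins read low on this scale. Adora3 ran from −6.24 to −3.28 in aorta, well above background on 11 of 12 arrays, and from −6.37 to −4.36 in muscle, well above background on 8 of 12. Its difference was 0.60 (95% interval −0.27 to 1.47, adjusted p = 0.293), and the adjusted p was 0.0167 with the pool of animals as a block, again where 57.1% of all probes were called. Adora1 ran from −3.40 to −0.73 in aorta and from −3.29 to −2.45 in muscle, with a difference of 0.13 (95% interval −0.43 to 0.69, adjusted p = 0.730). A second Adora1 probe went the other way, with −0.36 (adjusted p = 0.268), so that no direction is given for this gene. The remaining Adora1 probe was well above background on only 12 of 24 arrays, and its values are not used.

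**Figure D2:**
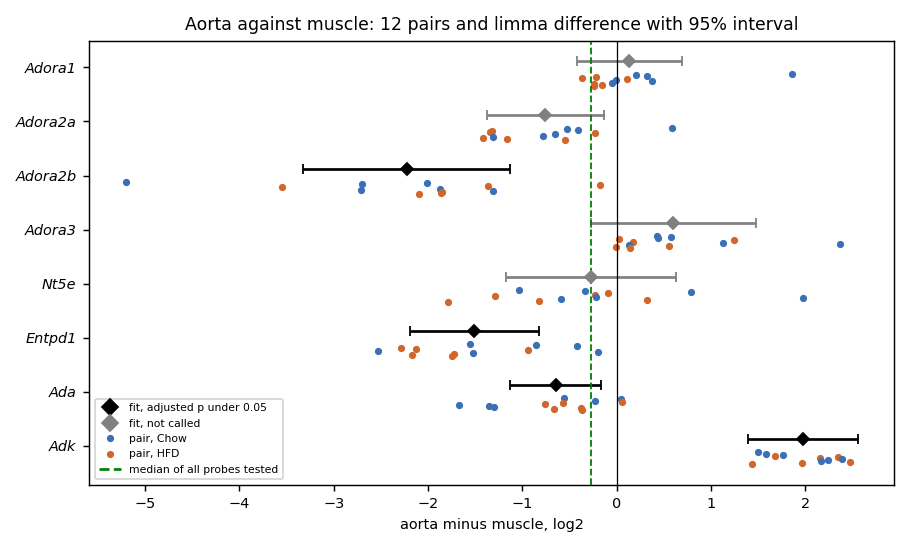
The x axis is the log2 difference of aorta minus muscle for each gene on the y axis. Dots are the 12 pairs of arrays of the same animals (colour for the diet), diamonds the limma difference with its 95% interval (black at an adjusted p under 0.05) and the dashed line the median of all probes, −0.27. Adk stands to the right with all pairs at 1.44 or more, and Adora2b and Entpd1 stand to the left with all pairs below 0.

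**Figure D3:**
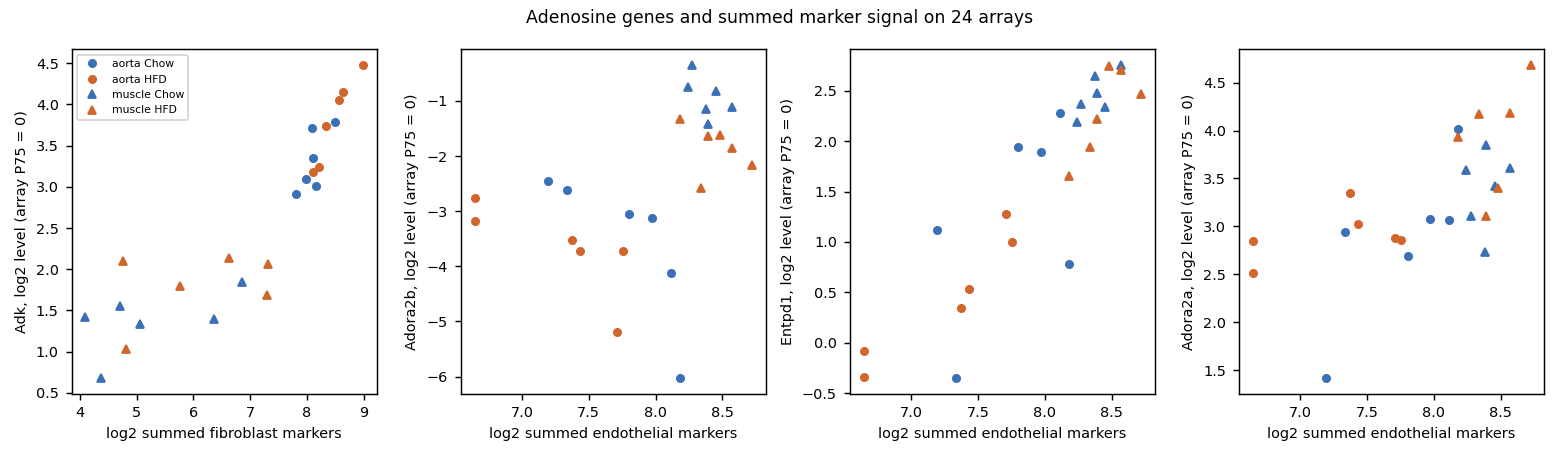
Each panel plots the log2 level of a gene on the y axis against the log2 of the summed linear level of a marker list on the x axis, 1 point for each of 24 arrays (circles for aorta, triangles for muscle, colour for the diet). Adk and the fibroblast sum are both higher in aorta, and Entpd1 and the endothelial sum are both higher in muscle. The other panels plot Adora2b and Adora2a against the endothelial sum.

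The next comparisons asked how these genes responded to HFD in each tissue and genotype, with every HFD array set against the chow array of its genotype and experiment. None of the 8 genes passed the test at an adjusted p under 0.05. Few probes did over the whole array, with 0% called in aorta of WT mice, 0% in aorta labelled KO, 0% in muscle of WT mice and 0.00389% in muscle labelled KO. Averaged over the genotypes, 0.0309% were called in aorta and 0.288% in muscle. At an unadjusted p under 0.05, the averaged responses included Nt5e, Entpd1 and Adora1 in aorta, all lower, where 15.1% of all probes were past that threshold (6.68% lower). In muscle they included Adora2b (lower) and Adora2a (higher), where 16.4% were past it. Taken singly, it was passed by Nt5e in WT aorta (5.77% of probes), by Nt5e and Entpd1 in aorta labelled KO (11.3%), by no member in WT muscle (12.1%) and by Adora2b in muscle labelled KO (8.49%).

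Adora2b in muscle gave the smallest p of the members. On chow the WT arrays read −0.75, −1.41 and −1.14 in experiments 1, 2 and 3, and on HFD −1.33, −1.86 and −1.62. The arrays labelled KO read −0.82, −1.10 and −0.35 on chow and −2.58, −2.15 and −1.63 on HFD. In WT muscle the diets overlapped, whereas in muscle labelled KO all 3 HFD arrays lay below all 3 chow arrays, as did 4.97% of probes there.

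For Adora2b in muscle, HFD over chow gave log2 ratios of −0.58, −0.45 and −0.48 in WT and −1.76, −1.05 and −1.29 in the arrays labelled KO. All 6 were below 0, as for 5.73% of probes tested in muscle. Averaged over the genotypes the difference was −0.93 (SE 0.16, 1.91-fold lower, unadjusted p = 0.000595, adjusted p = 0.0915). It had an adjusted p of 0.0397 among the probes well above background on every muscle array, a smaller set of probes. Without experiment 1 it was −0.82 (adjusted p = 0.352). In the labelled genotypes taken singly, it was −0.50 in WT (adjusted p = 0.430) and −1.36 in KO (adjusted p = 0.270). Adora2b in muscle labelled KO is a transcript that the study itself picked from these arrays, so its direction there is not independent evidence.

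The response of Adora2b in muscle labelled KO minus that in WT was −0.86 (95% interval −1.60 to −0.12, unadjusted p = 0.0285, adjusted p = 0.999 by limma). No probe in muscle was called for this difference (0%), and 4.12% had an unadjusted p under 0.05. All 3 KO ratios lay below all 3 WT ratios, and the two-sided exact permutation test gave p = 0.1, the smallest value that 3 against 3 allows (0.7 after adjustment over the 8 members). How many of all probes have ratios in such an order was not counted, in muscle or in aorta, so the order is a description. Without experiment 1 the difference was −0.70 (adjusted p = 1.00). Since the HFD arrays of experiment 1 did not separate by label, the genotype behind the widest ratio, −1.76, is uncertain.

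Markers of other cells in muscle stood beside this as follows. Averaged over the genotypes none was called, but all 6 fibroblast markers were above 0 (median 1.02), 7 of 8 macrophage markers tested were above 0 (median 1.58), and all 6 adipocyte markers were below 0 (median −0.65). Of the 8 smooth muscle and pericyte markers, with which Adora2b correlated in muscle, 6 were below 0 (median −0.45), 3 of them at an unadjusted p under 0.05. The 10 endothelial markers had a median of −0.01. The part of these cells in the Adora2b ratios was not tested.

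In aorta, Adora2b had no shared direction. The ratios were −0.56, 0.40 and −1.27 in WT and 3.27, −0.39 and −2.13 in the arrays labelled KO, and the first of the latter rests on the chow array that was not above background. The averaged difference was −0.12 (95% interval −1.70 to 1.47, adjusted p = 0.952), and without experiment 1 it was −0.85 (adjusted p = 0.540).

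Adora2a had its most even ratios in muscle, where HFD arrays read higher. On chow it read 3.59, 3.85 and 2.73 in WT and 3.42, 3.61 and 3.11 in the arrays labelled KO, and on HFD 3.93, 4.19 and 3.40 and 4.17, 4.68 and 3.11. All 6 ratios were above 0 (5.63% of probes), the lowest at 0.00. The averaged difference was 0.53 (SE 0.18, 1.44-fold, unadjusted p = 0.0252, adjusted p = 0.240), while the other probe gave 0.20 (adjusted p = 0.679). Without experiment 1 the difference was 0.52 (adjusted p = 0.517). In aorta the ratios of WT ran from −0.43 to 1.43 and those of KO from −1.16 to 0.27, with an averaged difference of 0.04 (95% interval −0.74 to 0.82), or 0.46 without experiment 1.

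**Figure D4:**
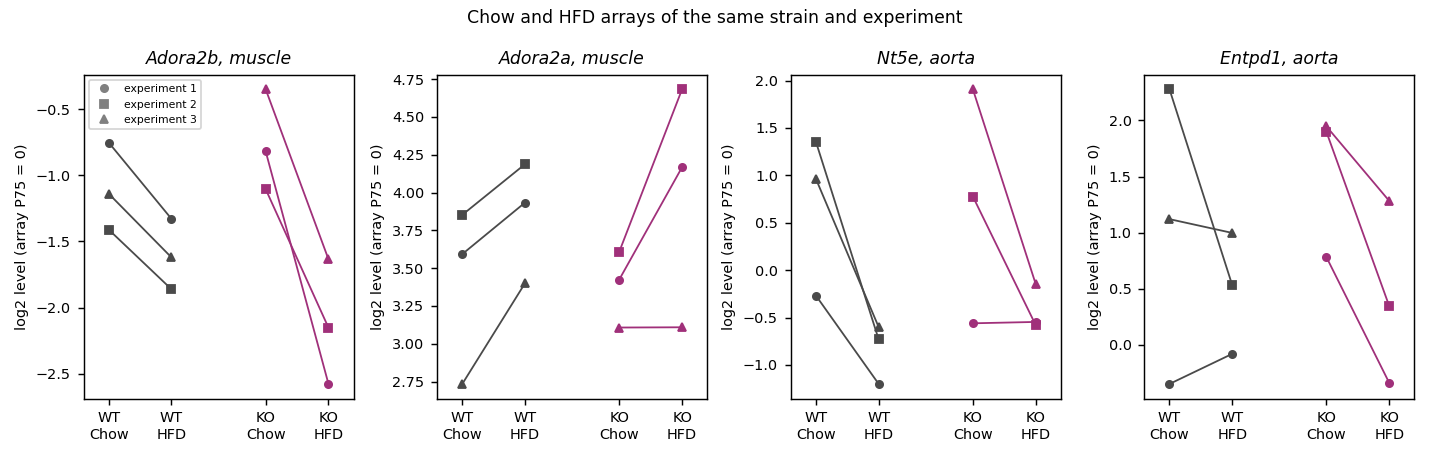
Each panel plots the log2 level of a gene in 1 tissue on the y axis, with lines that join the chow and HFD array of the same genotype and experiment (marker shape for the experiment, colour for the genotype). Adora2b in muscle is lower on HFD along all 6 lines, with the 3 KO lines steeper (−1.05 to −1.76) than the 3 WT lines (−0.45 to −0.58). The share of all probes with such an order of the genotypes was not taken. Nt5e in aorta is lower on HFD along 5 of 6.

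Among the enzymes, Nt5e and Entpd1 had the clearest ratios, and both read lower on HFD in aorta. Nt5e in WT aorta read −0.27, 1.36 and 0.96 on chow and −1.20, −0.73 and −0.60 on HFD. The arrays labelled KO read −0.56, 0.78 and 1.91 on chow and −0.55, −0.58 and −0.15 on HFD. In WT the diets did not overlap, as for 3.63% of probes with HFD lower, and in KO they overlapped through experiment 1.

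The ratios of Nt5e in aorta were −0.93, −2.09 and −1.56 in WT and 0.01, −1.36 and −2.05 in the arrays labelled KO. The averaged difference was −1.33 (SE 0.31, 2.51-fold lower, unadjusted p = 0.00423, adjusted p = 0.190). Without experiment 1 it was −1.77 (adjusted p = 0.281). In muscle the averaged difference was −0.59 (95% interval −1.35 to 0.18, adjusted p = 0.413), with ratios from −1.48 to 0.71 over the 6 pairs, and without experiment 1 it was −0.28, where the WT response turned to 0.17.

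Entpd1 in aorta read −0.35, 2.28 and 1.12 on chow and −0.08, 0.53 and 1.00 on HFD in WT, and 0.78, 1.90 and 1.95 on chow and −0.34, 0.34 and 1.28 on HFD in the arrays labelled KO. The diets overlapped in both genotypes, and 5 of 6 ratios were below 0. The averaged difference was −0.82 (SE 0.30, 1.77-fold lower, unadjusted p = 0.0320, adjusted p = 0.291), and the other probe gave −0.72 (adjusted p = 0.342). Without experiment 1 it was −1.02 (adjusted p = 0.443). In muscle it was −0.17 (95% interval −0.56 to 0.22, adjusted p = 0.634), or −0.025 without experiment 1.

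Markers in aorta were read in the same way. None was called, but all 10 endothelial markers were below 0 (median −0.75), all 6 adipocyte markers were below 0 (median −3.82) and all 6 fibroblast markers were above 0 (median 0.70). The summed endothelial level in WT aorta ran from 146 to 277 on chow and from 100 to 216 on HFD, and in the arrays labelled KO from 223 to 290 and from 100 to 209. The 5 platelet markers summed to 3.73 to 8.32 on chow and 1.22 to 2.49 on HFD in WT, and to 5.29 to 15.3 and 1.14 to 2.57 in the arrays labelled KO, with no overlap of the diets, and 3 of 4 tested were below 0 (median −1.83). The macrophage markers summed to 6.62 to 8.62 on chow and 3.38 to 4.95 on HFD in WT, again without overlap, and to 3.69 to 7.10 and 3.26 to 4.12 in the arrays labelled KO. The part of these shifts in the Nt5e, Entpd1 and Adora1 ratios was not tested.

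Ada and Adk, which remove adenosine, had smaller ratios. Ada in aorta had ratios from 0.31 to 0.95 in WT, all above 0, and from −0.29 to 0.01 in the arrays labelled KO. The difference of the responses was −0.68 (95% interval −1.54 to 0.18, adjusted p = 1.00 by limma), with 0% of aortic probes called and 2.62% at an unadjusted p under 0.05, and the exact permutation test gave p = 0.1 (0.8 after adjustment over the 8 members). Without experiment 1 this difference was −0.86 (adjusted p = 1.00). In muscle the averaged Ada difference was −0.16 (95% interval −0.70 to 0.39), and it turned to 0.17 without experiment 1. Adk had averaged differences of 0.50 in aorta (95% interval −0.20 to 1.19) and 0.43 in muscle (95% interval −0.11 to 0.97), with 5 of 6 ratios above 0 in each tissue. Without experiment 1 these were 0.55 and 0.52.

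Of the remaining receptors, Adora1 in aorta had 6 of 6 ratios below 0 (4.55% of probes), from −0.17 to −1.94, and an averaged difference of −0.65 (SE 0.27, adjusted p = 0.324). The widest ratio came from the chow array labelled KO of experiment 1, which read −0.73 against −3.40 to −2.45 on the other 23 arrays. The second Adora1 probe gave −0.13 (adjusted p = 0.815). Without experiment 1 the brightest probe gave −0.36 (adjusted p = 0.613). In muscle the Adora1 difference was −0.01 (95% interval −0.38 to 0.37) and changed sign between settings. Adora3 in aorta had an averaged difference of −0.40 (95% interval −1.27 to 0.47), or −0.12 without experiment 1, and in muscle it passed the filter on dim probes in no group and was not tested.

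**Figure D5:**
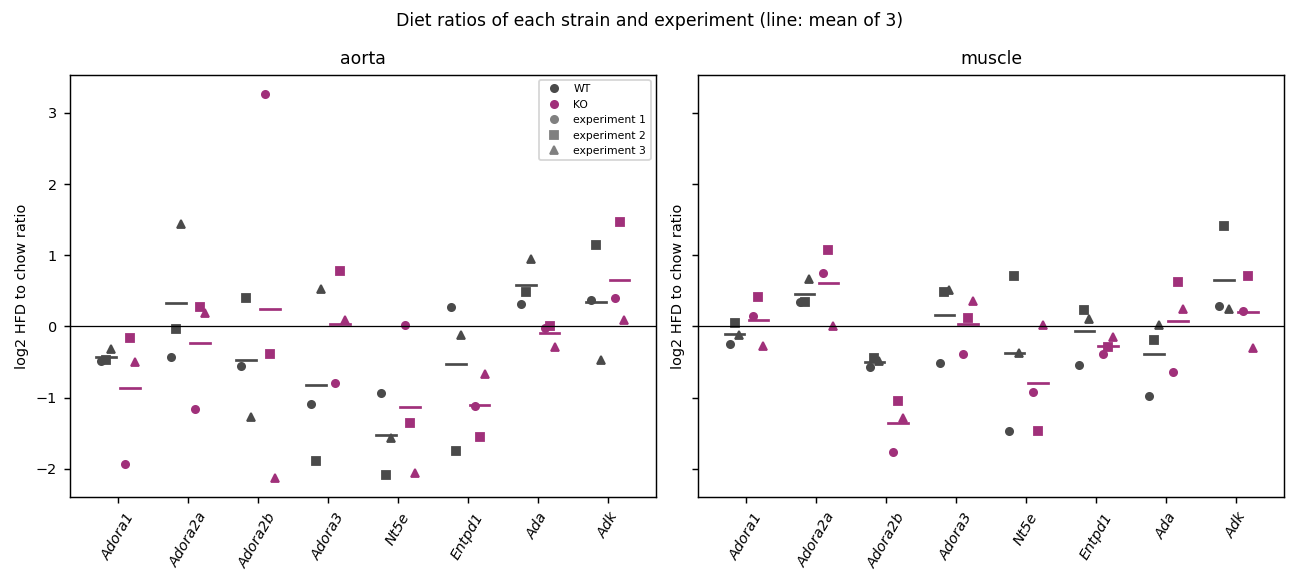
The y axis is HFD over chow as a log2 ratio within 1 genotype and experiment, for the 8 genes in aorta (left) and muscle (right). Marker shape gives the experiment, colour the labelled genotype, and short lines the mean of 3. In muscle, the 6 ratios of Adora2b lie below 0 with the 3 KO ratios lowest, and the ratios of Nt5e in aorta lie below 0 but for 1 at 0.01. For the order of the genotypes the share of all probes was not taken.

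The genotypes were compared with the diets averaged, to ask whether the label alone went with these genes. None of the 8 genes was called, where 0.0116% of aortic probes, 0% of muscle probes and 0.128% of probes over the tissues together were. None had an unadjusted p under 0.05 either, against 3.39% of probes in aorta, 3.27% in muscle and 4.06% over the tissues together. This fit over group means did not use the experiment and slide that WT and KO arrays share, so a paired test could differ. The smallest p belonged to Ada in aorta, higher on the arrays labelled KO by 0.57 (95% interval −0.01 to 1.15, unadjusted p = 0.0529, adjusted p = 1.00). Its array labelled KO was the higher of 5 of 6 pairs of the same diet and experiment, and without experiment 1 the difference was 0.52. Over these pairs the Ada difference ran from −0.37 to 1.03. Adora2a in aorta was higher in 6 of 6 pairs, but with a difference of 0.51 (95% interval −0.23 to 1.24), or 0.41 without experiment 1. The share of all probes higher in every such pair was not taken. On chow, the other Adora2a probe had aortic means of 1.75 in each genotype, and its array labelled KO was the lower in experiments 2 and 3. On HFD its aortic means were 2.07 on the arrays labelled KO and 1.85 in WT. Over both tissues the differences of the 8 genes ran from −0.36 (Adora2b) to 0.31 (Nt5e). Without experiment 1 they ran from −0.18 (Adora3) to 0.25 (Ada), and that of Adora2b was −0.0066, so that its value rests on experiment 1, which holds the chow array not above background. Adk lies on chromosome 14, as does Lgals3, and its difference was −0.03 (95% interval −0.43 to 0.36).

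Among 79 further genes of adenosine and purine handling, 76 were on the array. They comprised nucleoside transporters, other ectonucleotidases, cytosolic purine enzymes, G proteins and adenylate cyclases, cAMP effectors with phosphodiesterases, and P2 receptors. Between the tissues 14 of 67 tested were higher in aorta and 17 lower, with a median of −0.09 against −0.27 for all probes. Of all probes 11.5% were higher and 16.7% lower, and the same shares are the background of the smaller lists. Of the ectonucleotidases and ATP release genes, 4 of 8 were higher in aorta and 2 lower, while of the cAMP effectors and phosphodiesterases 0 of 14 were higher and 5 lower.

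Among the ectonucleotidases and ATP release genes, Entpd2, which makes mostly ADP, was higher in aorta by 4.00 on the log2 scale (SE 0.44), in contrast to Entpd1. Panx1, a channel that releases ATP, was 4.47-fold higher, and Cd38, an NAD-consuming ectoenzyme, was 4.80-fold lower. P2ry6, a receptor for UDP, was 9.26-fold higher. Of the adenylate cyclases, which act downstream of Adora2a and Adora2b through G proteins, Adcy7 was 30.7-fold and Adcy8 5.24-fold higher in aorta. On the muscle side stood Ampd1, the muscle AMP deaminase (28.3-fold lower in aorta), Adssl1, the muscle adenylosuccinate synthase (4.85-fold lower), and Slc28a2, a concentrative nucleoside transporter (4.87-fold lower). Ak1, an adenylate kinase, was 3.15-fold higher in aorta. Fibroblast markers were higher in aorta and muscle fibre markers higher in muscle, as given above, and their part in these differences was not tested.

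With diet, none of these genes was called. In aorta, averaged over the genotypes, 8 of 66 had an unadjusted p under 0.05 with HFD higher and 2 with HFD lower, where 8.45% and 6.68% of all probes did. The smallest p-values were of Adcy5 (1.73, adjusted p = 0.0793), Enpp1 (2.31, 0.156), Adcy7 (2.04, 0.169), Ak1 (1.05, 0.196) and Pde2a (−1.35, 0.251). In muscle 11 of 62 were past that threshold with HFD higher and 4 lower, where 7.28% and 9.1% of all probes were. The smallest p-values there were of Adcy7 (2.15, 0.0984), Pde4a (−0.86, 0.133), Dpp4 (2.34, 0.147), P2ry6 (0.81, 0.179) and P2rx7 (0.78, 0.192). Without experiment 1 the counts at that unadjusted threshold were 5 higher and 0 lower in aorta and 3 and 3 in muscle, and none was called. The differences of the genes just named had the same sign there, among them Adcy5 in aorta (1.93, adjusted p = 0.248), Pde2a in aorta (−1.04, 0.543) and P2ry6 in muscle (0.56, 0.509). Dpp4 is a cell surface peptidase that binds adenosine deaminase in humans.

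For each member, the genes whose level was most like it over the 24 arrays were listed by Pearson's r among 13933 genes, as a description with no test. Entpd1 was most like Nos3, the endothelial nitric oxide synthase (r = 0.948), Ctla2a (0.944) and Cysltr1 (0.944). Adk was most like Igf1 (0.975), Siae (0.974) and Pon3 (0.974), and Adora2b like Npy1r (0.836), Got1 (0.828) and Limd1 (0.815). These values hold the difference between the tissues, and within aorta alone Adora2b and Npy1r had r = 0.298, while Entpd1 and Nos3 had 0.913 and Adk and Igf1 0.902. Within muscle alone Adora2b and Npy1r had r = 0.749, Entpd1 and Nos3 0.670 and Adk and Igf1 0.814.

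Adora2a was most like Tsku (0.922), H2-Q8 (0.919) and H2bu2 (0.918), Adora1 like Pcx (0.917), Hamp2 (0.891) and Clstn3 (0.860), and Ada like Dus1l (0.876), Man1b1 (0.872) and Szrd1 (0.853). Nt5e was most like Trmt10c (0.841), 2510002D24Rik (0.820) and Pdgfd (0.815), and Adora3 like 2210010C04Rik (0.839), Clps (0.811) and Slc35c1 (0.785). The arrays of a slide share their experiment and scan, which these correlations include.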

How the data were processed

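RNA of sorted CD105+/CD45- cells was amplified, labelled with Cy3 and hybridised to 24 single-colour Agilent arrays on 6 slides. A slide held 4 arrays, those of a single tissue in a single experiment. Scans fell into 2 sessions, experiment 1 and experiments 2 and 3. Per the file headers, the processed intensity of each spot was made by Feature Extraction 10.5.1.1 (the submitters' processing notes name 9.1), background-subtracted but not scaled between arrays. The deposited files also hold the median intensity of spot and local background. The authors also deposited a log2 table, equal to the log2 processed intensity plus a constant per array. How the paper's own ratios were scaled is not given in the sources used here.

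Levels were log2 processed intensity minus the 75th percentile of the array, without outlier spots and averaged per probe. Probes were matched by accession to RefSeq genes of GRCm38.p6. A probe was well above background if at least 0.5 of its spots were. Probes well above background on all arrays of at least 1 group entered the tests (25865 for aorta, 25682 for muscle, 27387 for comparisons of the tissues).

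Diet was tested with limma (version 3.58.1, under R 4.3.3), with a block for each genotype and experiment, as the trial number in the labels marks a shared experiment. The deviations from the group means of paired HFD and chow arrays had r from 0.01 to 0.46. Genotypes were compared over group means without a block, and tissues with the slide as a random block (correlation 0.28). Calls used a Benjamini-Hochberg adjusted p under 0.05 over all probes. The arrays are separate pools, and their number limits the precision. Replicate arrays of a group had r from 0.914 to 0.963.

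The genes, lists and tests were chosen with earlier results of these data known. Named are the 8 members, Lgals3, the pathway genes called in a comparison (at most the 10 widest) or else the 5 with the smallest p, and the 3 genes most like each member well above background on at least 12 arrays. For the single genotypes and the comparisons of genotypes, pathway genes are given in counts alone. At an unadjusted p under 0.05 they numbered from 0 to 11 of 62 to 67 tested. Of all probes, from 2.62% (difference of responses in aorta) to 12.1% (diet in WT muscle) were past that threshold. No excess over these shares is claimed. Alternatives were normexp (offset 50, on the median signals, since no mean signal was used here), quantile normalization, the deposited table, other filters, blocks and probes, each experiment left out, and the methods' t-test. In simulated arrays with 100 probes changed by 2 on the log2 scale, the fits recovered 19 in the averaged diet comparison of aorta (25543 probes) and 41 in that of muscle (25456 probes), but 0 in the diet comparison of KO alone and 0 in the difference of responses of either tissue. Of 100 changed by 1 they recovered, in the same order, 1, 0, 0 and 0. The simulated HFD and chow arrays of an experiment shared no variation, unlike the real pairs. These counts therefore cannot stand for the power of the paired diet tests. Between genotypes over both tissues (26753 probes) they recovered 90 and 51 for changes of 2 and 1. The tissue fit was simulated only without its slide block (90 and 56). In these runs too the simulated arrays of a slide shared no variation, unlike the real ones. The counts between genotypes and between tissues therefore cannot stand for the power of those tests either. Unchanged probes called numbered 12 between genotypes, 9 between tissues and 2 in the averaged diet comparison of muscle. Each marker gene was read from 1 probe in both tissues.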

Additional observations from a re-analysis of the deposited data

How the results depend on the processing

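Between the tissues, Adk, Adora2b, Entpd1, Ada, Adora2a, Nt5e and Adora3 kept their direction in every setting run, as did Adora2b in muscle and Nt5e and Entpd1 in aorta with diet averaged over the genotypes. Relative to the median of all probes, the Nt5e difference between the tissues was −0.0037 in the main setting and 0.054 with normexp. No direction is therefore given for Nt5e between the tissues. Of the member results over the alternatives, 909 kept direction and call, 41 turned, 6 lost and 5 gained a call. Without filter the Ada difference between the tissues had an adjusted p of 0.0621. Without a slide block that of Adora2a had 0.0117, in a setting that called 46.1% of all probes. Signal over background limits Adora3 (19 of 24 arrays well above background), 1 further Adora1 probe (12) and the second Nt5e probe (2).

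Counts of probes called moved as follows, where the main counts were 0 with diet in WT aorta, aorta labelled KO and WT muscle, 1 in muscle labelled KO, 8 and 74 averaged in aorta and muscle, 3 between genotypes in aorta, 0 in muscle and 35 over both, and 7715 between the tissues. With no replicate block they were 4, 7, 1 and 4 in the single genotypes (WT aorta, aorta labelled KO, WT muscle, muscle labelled KO) and 50 averaged in aorta, and no member was called. With the slide as replicate block they were 2 in WT aorta, 4 in aorta and 4 in muscle labelled KO, 58 and 274 averaged in aorta and muscle, and 1 and 54 between genotypes in aorta and over both. With the pool of animals as replicate block 15645 were called between the tissues, and with no slide block 12630. Normexp gave 2, 4, 8 and 5 in the single genotypes in the same order, 55 and 221 averaged, and 8 between genotypes in aorta. Probes well above background on every array gave 2, 5, 29 and 2, then 41 and 247, with 0 and 21 between genotypes in aorta and over both. No filter gave 5 and 1 averaged and 1 between genotypes in aorta, as did quantile normalization (1). The methods' t-test with Benjamini-Hochberg adjustment gave 0 in muscle labelled KO. Leaving out an experiment gave 0 in muscle labelled KO and 0 averaged in each tissue, 0 to 3, 0 to 2 and 0 to 35 between genotypes in aorta, muscle and over both, and 2987 to 7218 between the tissues. The cause was not tested.

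Directions also turned for differences that were not called. Adora1 with diet averaged in muscle was 0.036 after quantile normalization, 0.0059 in the deposited table and 0.046 with another probe. Another probe gave −0.36 for Adora1 between the tissues, 0.32 for Adora2a with diet in aorta labelled KO and 0.22 for its difference of responses there, and for Entpd1 in muscle 0.066 for the difference of responses and 0.26 between genotypes. Leaving out an experiment turned the following. With diet in WT aorta these were Adk from −0.055 to 0.75, Adora2a from −0.23 to 0.70 and Entpd1 from −0.93 to 0.073. With diet in aorta labelled KO these were Adora2a from −0.49 to 0.23, Adora2b from −1.26 to 1.44 and Adora3 from −0.35 to 0.44. With diet averaged in aorta these were Adora2a from −0.34 to 0.46 and Adora2b from −0.85 to 0.68. For the difference of responses in aorta these were Adora1 from −0.82 to 0.065, Adora2b from −0.83 to 1.52 and Adora3 from −0.063 to 1.49. Between genotypes in aorta these were Adora3 from −0.49 to 0.13 and Nt5e from −0.016 to 0.44. With diet in WT muscle these were Entpd1 from −0.22 to 0.17 and Nt5e from −0.92 to 0.17. With diet in muscle labelled KO these were Ada from −0.20 to 0.44, Adk from −0.043 to 0.46 and Adora1 from −0.065 to 0.28. With diet averaged in muscle these were Ada from −0.34 to 0.17 and Adora1 from −0.13 to 0.091. For the difference of responses in muscle these were Adora2a from −0.13 to 0.57 and Nt5e from −0.89 to 0.47. Between genotypes in muscle these were Adk from −0.052 to 0.40, Adora1 from −0.0022 to 0.12, Adora2b from −0.33 to 0.20 and Entpd1 from −0.19 to 0.12. Between genotypes over both tissues these were Adk from −0.21 to 0.16, Adora3 from −0.27 to 0.24 and Entpd1 from −0.027 to 0.20.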
